A study of Homo sapiens with 6 samples.

Results

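The genes examined here encode the machinery that displays peptides on HLA class I and class II molecules at the cell surface. The list holds 35 genes, 18 of class I, 16 of class II and the lipid-presenting CD1D, and was matched by gene symbol to the annotation of the arrays. Of the 35, 33 had at least 1 probe set annotated to them alone, out of 19775 such genes on the arrays, and these 33 had 85 single-gene probe sets. Another 7 probe sets named a member together with other genes and were kept apart. PSME2 was named only on one of those, and IFI30 was not analysed here. Values passed the filter on dim signals in 31 members, out of 13572 genes tested. HLA-DQA1 and CD1D were the 2 that did not pass.

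RNA came from Kasumi-1, an established line grown from acute myeloid leukaemia with the RUNX1-RUNX1T1 fusion, so all samples are 1 line. The 3 samples of the control group received vehicle for 24 h and the 3 treated samples received 20 nM homoharringtonine (HHT), a plant alkaloid that blocks translation elongation, for 24 h. The sources used here do not say whether the 3 arrays of a group were separate cultures, so p-values here rest on a spread between arrays that may be technical only.

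Class I molecules pair a heavy chain with beta-2-microglobulin and present peptides made by the proteasome in the cytosol. The transporter TAP, a dimer of TAP1 and TAP2, carries those peptides into the endoplasmic reticulum, where tapasin and chaperones load them and the aminopeptidases ERAP1 and ERAP2 trim them. Interferon replaces the catalytic subunits of the standard proteasome with PSMB8, PSMB9 and PSMB10. Class II molecules instead take peptides cut by cathepsins in endosomes. The invariant chain CD74 guards their groove until HLA-DM exchanges its remnant for a peptide. Transcription of class II genes depends on CIITA and on the RFX and NF-Y complexes, and NLRC5 plays the part of CIITA for class I genes. Myeloid blasts commonly display class I, while their display of class II varies.

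Values are log2 signals, so a difference of 1 is a doubling. A gene is given by its brightest single-gene probe set unless another is named, and was called at a Benjamini-Hochberg adjusted p under 0.05 in a limma fit over all probe sets tested. Genes that were not called are given by their values, without the words rose or fell. The arrays were scaled by the submitters to a common mean signal. On that scale, the medians of the probe sets ran from 5.82 to 5.96 in vehicle and from 5.53 to 5.77 in HHT. The 18 hybridisation controls, transcripts added to each sample, averaged 11.98 ± 0.0282 (SD, n = 3) on vehicle arrays and 11.70 ± 0.0598 (SD, n = 3) on HHT arrays, a difference of -0.28. Calls of members and of other pathway genes that are lost when the arrays are set to equal medians or equal controls are named with their values. Calls of cell type markers are given on the deposited scale only. As the RNA is bulk and scaled to a common mean, fewer cells with a transcript and less of it per cell cannot be told apart.

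Of the markers of a myeloblast with this fusion, 6 of 7 with a probe set had a mean above the filter level of 4.80, among them KIT and MPO. The mean over that list ran from 10.1 to 10.4 in vehicle and from 9.45 to 9.93 in HHT. Of its 6 tested genes, 4 fell (KIT, CD34, MPO and ITGA4), where 24.2% of all genes tested fell. Of the monocyte and macrophage markers, 3 of 8 had a mean above the filter level, as did 2 of 6 markers of dendritic cells, which present antigen by profession. CD14 and CD1C were below it. The mean log2 signal over the monocyte list ran from 4.30 to 4.51 in vehicle and from 3.89 to 5.08 in HHT, and that over the dendritic cell list from 3.89 to 4.40 and from 4.29 to 4.48. The B cell list, of which 4 of 5 were above the level (PAX5 and CD79A, both known in this leukaemia type, among them), ran from 6.49 to 7.34 in vehicle and from 6.29 to 7.20 in HHT. The T and NK cell list had 5 of 7 above the level, with CD3D at a mean of 11.69, and ran from 5.56 to 6.14 and from 5.92 to 6.37. The fibroblast list had 3 of 6 and ran from 4.33 to 5.82 and from 4.87 to 5.03. For each of the 5 lists of other cell types the ranges of the groups overlapped. Single markers were called on the deposited scale: CD79B, at a mean of 9.35, rose and CSF1R, VCAN, PAX5 and COL1A1 fell. The change of PAX5 was -0.25, where HHT arrays differed from vehicle by -0.24 in median and -0.28 in hybridisation controls. NKG7 was also called higher, but with a vehicle mean of 4.06 it passed the filter only through its HHT arrays, at a mean of 6.74. CR2 was at 0 on at least 1 array. The part of other cell types in the results was not tested.

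Class I genes moved in both directions and class II HLA genes were not called. Of the 17 class I members tested, 8 rose, 5 fell and 4 were not called, where 29.6% of all genes tested rose, 24.2% fell and 53.8% did either. Of the 14 class II members tested, 1 rose, 3 fell and 10 were not called. The genes that rose were HLA-B, HLA-E, HLA-F, HLA-G, TAP1, PSMB9, PSMB10 and ERAP2 of class I and RFXANK of class II. Those that fell were B2M, TAP2, TAPBP, PSME1 and ERAP1 of class I and CD74, RFX5 and RFXAP of class II. With an absolute change of at least 1 asked as well, 1 member rose (PSMB9) and 1 fell (TAP2), where 9.56% of all genes rose and 5.94% fell. The vehicle and HHT arrays did not overlap for 10 members that were higher and 9 that were lower, all of them called but HLA-C and HLA-DQB1, and for 62.2% of all genes tested.

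**Figure D1:**
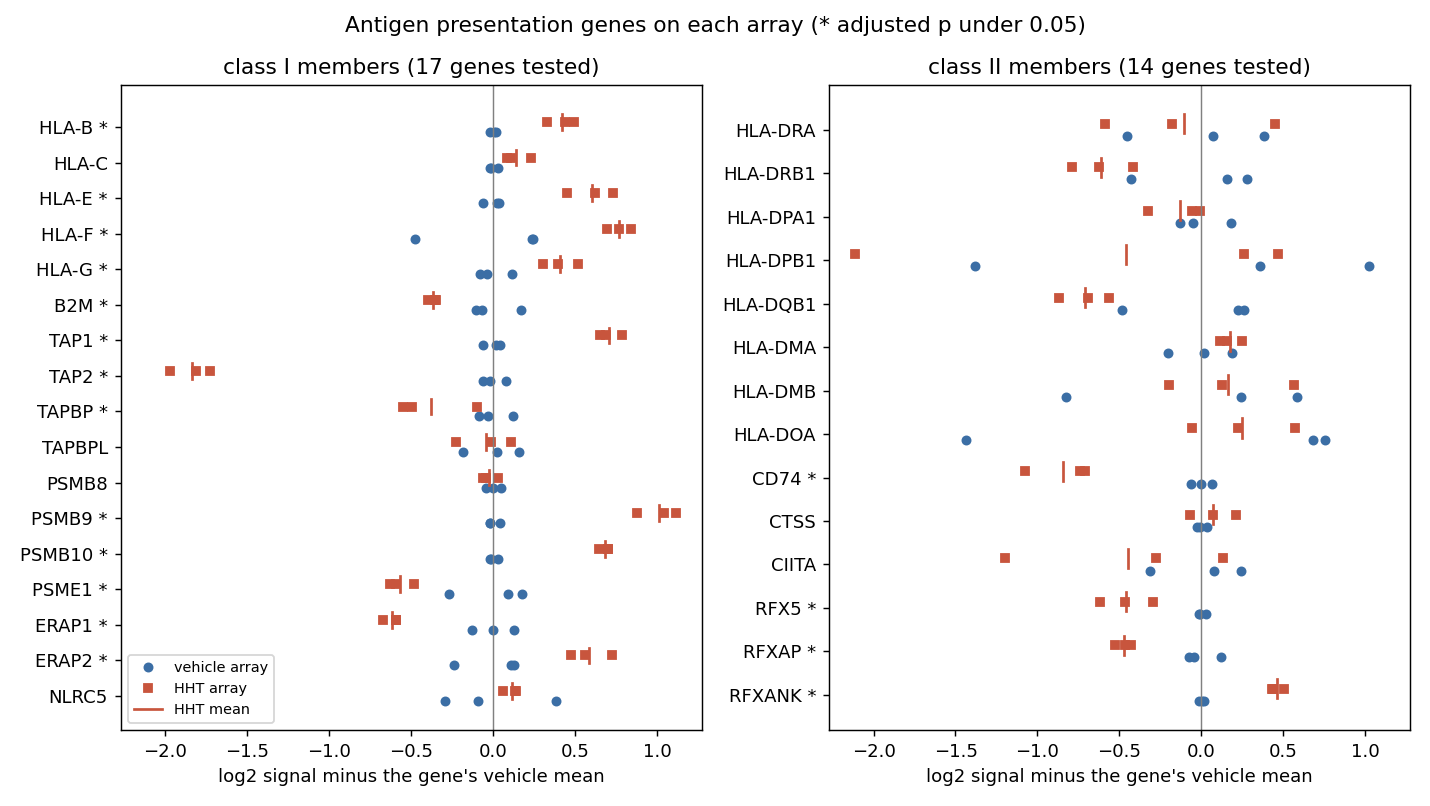
Log2 signal of each tested member on each array, minus that gene's vehicle mean, for class I members (left) and class II members (right). Blue circles are the 3 vehicle arrays, red squares the 3 HHT arrays and the red bar their mean, and an asterisk marks an adjusted p under 0.05. By HHT mean, TAP2 stands farthest to the left at -1.84 and PSMB9 farthest to the right at 1.01, and the vehicle arrays of HLA-DPB1, HLA-DOA and HLA-DMB are spread widely.

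The class I heavy chains form the peptide groove. HLA-B, a classical chain that presents to cytotoxic T cells, measured 11.06, 11.10 and 11.08 on the vehicle arrays and 11.41, 11.52 and 11.58 on the HHT arrays. Every HHT array was above every vehicle array, and the gene rose by 0.42 (SE 0.0667, adjusted p = 0.000377), a 1.34-fold higher signal. HLA-C, the other classical chain on the list and a ligand of killer cell receptors, measured 11.62, 11.67 and 11.63 in vehicle and 11.75, 11.87 and 11.72 in HHT. The groups were apart, but the difference of 0.14 was not called (SE 0.0628, adjusted p = 0.0917). Its 3 dimmer probe sets were called higher, by 0.26, 0.27 and 0.54. The mean of its 4 probe sets was also called, at 0.30 (adjusted p = 0.00237), as was its brightest set once medians (0.38) or hybridisation controls (0.42) were set equal.

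Among the non-classical chains, HLA-E, which shows leader peptides of other class I chains to the NKG2A receptor of NK cells, measured 12.43, 12.34 and 12.42 in vehicle and 12.85, 13.02 and 13.13 in HHT. It rose by 0.60 (SE 0.0736, adjusted p = 6.18e-05). Its probe set of the plain _at kind, the only one of the heavy chains to be tested, measured 10.78, 10.91 and 11.07 against 11.83, 11.86 and 11.95, an increase of 0.96 (SE 0.0817, adjusted p = 4.40e-06). HLA-F, a chain with little cell-surface display in resting cells, measured 9.64, 8.92 and 9.63 in vehicle and 10.09, 10.24 and 10.17 in HHT. It rose by 0.77 (SE 0.170, adjusted p = 0.00350), with vehicle replicate 2 lowest by a wide margin, and by 0.53 without that array. Its second probe set rose by 0.68. HLA-G, known for its display on the placental trophoblast, measured 10.49, 10.34 and 10.29 in vehicle and 10.68, 10.77 and 10.89 in HHT and rose by 0.41 (SE 0.0852, adjusted p = 0.00248).

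Heavy-chain genes are near copies of each other, and 15 of their 17 single-gene probe sets carry the suffix _x_at, with which the manufacturer marks sets whose probes can also match other transcripts. Of these 17, 16 passed the filter, 13 were higher and 0 lower, where 23.0% of all probe sets tested were higher and 23.3% lower. By the same limma fit, 14 of the 16 had an unadjusted p under 0.05, as had 8074 of the 13572 genes tested. The 3 that were not called were the brightest of HLA-C, the HLA-B set at 0.16 and the HLA-G set at 0.01. Which heavy-chain gene a given _x_at signal came from cannot be told from these values. The 13 sets that were higher are thus not separate observations. HLA-B, HLA-C, HLA-F and HLA-G had no tested probe set of another kind. A plain _at set of HLA-F did not pass the filter. Its means were 5.03 in vehicle and 3.61 in HHT, and its groups overlapped.

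B2M, the light chain shared by all these molecules, differed from them. It measured 15.05, 14.81 and 14.77 in vehicle and 14.53, 14.48 and 14.52 in HHT. All HHT arrays were below all vehicle arrays, and B2M fell by 0.37 (SE 0.0693, adjusted p = 0.00131). A second bright probe set fell by 0.33 and a dim one, at 0.61, was not called. Of the 4 scalings, B2M was called on the deposited one alone. Its change was 0.01 after quantile normalization, -0.08 once the hybridisation controls were set equal and -0.13 once the medians were, none of them called. The heavy chains HLA-B, HLA-E, HLA-F and HLA-G were called higher under each of these 4 scalings.

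**Figure D2:**
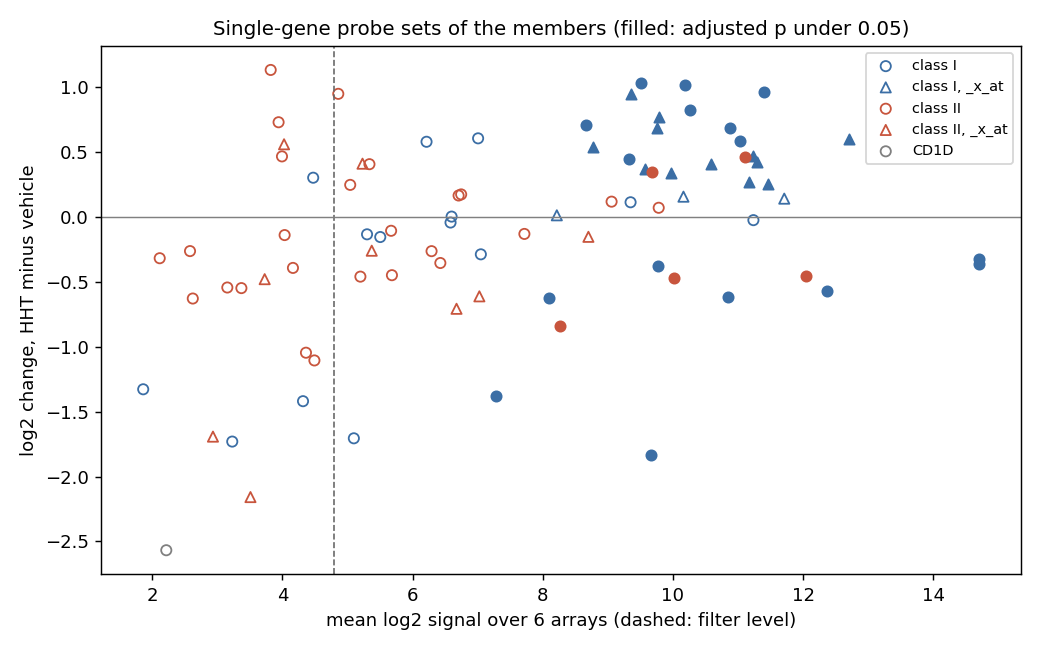
Mean log2 signal over the 6 arrays against the log2 change (HHT minus vehicle) for the 85 single-gene probe sets of the members, blue for class I, red for class II and grey for CD1D, with triangles for _x_at sets. Filled symbols have an adjusted p under 0.05, and the dashed line is the filter level of 4.80. The filled triangles, all of class I heavy chains, lie above 0, and most class II sets are open symbols at dim signals.

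The largest change in each direction among the called members was in peptide transport, where TAP2 fell, and in peptide cutting, where PSMB9 rose. TAP2, PSMB8, TAP1 and PSMB9 follow each other in that order among the protein-coding genes of the class II region on chromosome 6, next to HLA-DOB. TAP1 and PSMB9 are transcribed away from each other, with 487 bases between the PSMB9 start and the nearer of the 2 RefSeq starts of TAP1. The 250 bases before that start of TAP1 and before those of PSMB9, TAP2 and B2M are shown because the first pair rose together, TAP2 fell and B2M shares motifs with TAP1. They come from RefSeq on GRCh38.p14 and are written in each gene's own direction. Capitals mark every match, on either strand, to the core of an interferon-stimulated response element (GAAA, any 2 bases, GAAA), to the NF-kB consensus and to a CCAAT box (CCAAT). The windows are chr6:32853705-32853954 on the minus strand for TAP1, chr6:32853942-32854191 on the plus strand for PSMB9, chr6:32838740-32838989 on the minus strand for TAP2 and chr15:44711267-44711516 on the plus strand for B2M.
TAP1: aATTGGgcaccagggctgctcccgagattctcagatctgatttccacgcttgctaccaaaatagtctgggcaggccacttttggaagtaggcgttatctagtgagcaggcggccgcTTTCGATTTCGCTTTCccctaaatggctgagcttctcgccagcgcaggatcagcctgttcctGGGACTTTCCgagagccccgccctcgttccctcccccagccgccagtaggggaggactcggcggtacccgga
PSMB9: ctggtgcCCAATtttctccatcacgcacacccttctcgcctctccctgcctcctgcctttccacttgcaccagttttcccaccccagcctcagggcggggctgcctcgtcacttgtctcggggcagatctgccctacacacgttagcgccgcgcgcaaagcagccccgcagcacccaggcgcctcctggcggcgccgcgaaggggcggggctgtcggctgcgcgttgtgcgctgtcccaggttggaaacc
TAP2: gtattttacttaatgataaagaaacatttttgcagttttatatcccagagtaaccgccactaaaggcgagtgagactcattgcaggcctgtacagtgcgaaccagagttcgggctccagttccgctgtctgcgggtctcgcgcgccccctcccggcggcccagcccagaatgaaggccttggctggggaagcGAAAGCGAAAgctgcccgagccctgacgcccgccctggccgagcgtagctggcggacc
B2M: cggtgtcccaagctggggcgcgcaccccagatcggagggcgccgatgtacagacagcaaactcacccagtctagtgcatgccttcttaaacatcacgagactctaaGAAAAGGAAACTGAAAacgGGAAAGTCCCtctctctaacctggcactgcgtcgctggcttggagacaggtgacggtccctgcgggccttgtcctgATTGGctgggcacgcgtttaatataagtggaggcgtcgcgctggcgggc

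The window of the other TAP1 start is not shown and holds no match to the 3 motifs. The TAP1 window shown holds 2 overlapping matches to the response element core, from -134 to -125 and from -128 to -119 of the start, and an NF-kB match from -72 to -63. The TAP2 window holds 1 match to the core, from -58 to -49. The B2M window holds 2 overlapping core matches and an NF-kB match. The PSMB9 window has no match to either of these and 1 CCAAT box, which lies in the 13 bases it shares with the TAP1 window. The core and NF-kB matches of the TAP1 window shown lie between the starts of TAP1 and PSMB9. They are thus upstream of PSMB9 too, but outside its window, and were not counted for PSMB9. Of the 34 members with a probe set, 29 had a RefSeq window; HLA-E, NLRC5, HLA-DRA, CTSS and CIITA had no entry. A core match was found for 8 of 16 class I genes (HLA-F, B2M, TAP1, TAP2, TAPBP, PSMB10, PSME2 and ERAP2) and for 1 of 12 class II genes (RFX5), against 3.71% of the 27305 genes with such a window. A gene with several windows was counted if any of them held the motif. NF-kB matches were found for 8 of the class I genes (HLA-B, HLA-C and HLA-G among them) and 2 of the class II genes (11.8% of all), and CCAAT boxes for 8 and 9 (37.0% of all). Of the 9 members with a core match, HLA-F, TAP1, PSMB10 and ERAP2 rose, B2M, TAP2, TAPBP and RFX5 fell, and PSME2 was not called. Of all genes tested, 29.6% rose and 24.2% fell. Of the falls with a core match, the calls of B2M, TAPBP and RFX5 were lost with equal medians and for equal controls. On those 2 scales, 37.3% and 41.6% of all genes rose and 12.7% and 12.8% fell. Whether a match goes with a direction was not tested. A match describes letters in a window and is no measured site.

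TAP1 measured 8.24, 8.32 and 8.35 in vehicle and 8.99, 8.95 and 9.09 in HHT. It rose by 0.71 (SE 0.109, adjusted p = 0.000325), a 1.63-fold higher signal. TAP2, which codes for the other chain of the transporter, went the opposite way. It measured 10.56, 10.51 and 10.65 in vehicle and 8.85, 8.60 and 8.76 in HHT. The groups lay far apart, and TAP2 fell by 1.84 (SE 0.0960, adjusted p = 2.00e-07). Its signal was 3.57-fold lower, the largest change of any member called. Of its other probe sets that passed the filter, 1 fell by 1.38 (adjusted p = 0.000878) and 1, which passed only through its vehicle arrays, was not called at -1.71 (adjusted p = 0.0813). Across the alternatives run, TAP1 stayed between 0.61 and 0.99 and TAP2 between -1.92 and -1.55, and both were called under each.

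PSMB9, the immunoproteasome subunit beta1i, measured 9.65, 9.71 and 9.65 in vehicle and 10.72, 10.55 and 10.79 in HHT. It rose by 1.01 (SE 0.0849, adjusted p = 4.03e-06), a 2.02-fold higher signal. PSMB10, the subunit beta2i, measured 10.51, 10.52 and 10.56 against 11.18, 11.23 and 11.24 and rose by 0.68 (SE 0.0649, adjusted p = 9.88e-06). PSMB8, the subunit beta5i, whose gene lies between TAP2 and TAP1, measured 11.20, 11.29 and 11.25 in vehicle and 11.18, 11.21 and 11.28 in HHT. Its groups overlapped and the difference of -0.02 was not called (95% interval -0.17 to 0.12). It was 0.21 with equal medians, not called, and 0.26 once hybridisation controls were equal, where it was called (adjusted p = 0.0127). Under each of these scalings PSMB8 changed less than PSMB9 and PSMB10.

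**Figure D3:**
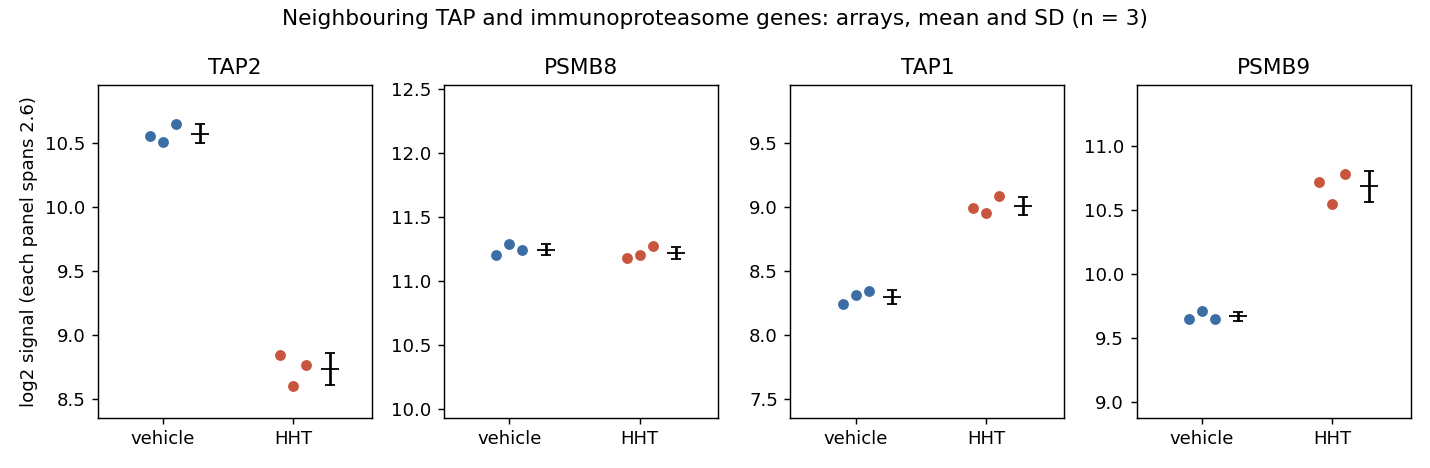
Log2 signal of TAP2, PSMB8, TAP1 and PSMB9, in their order along the chromosome, on each vehicle (blue) and HHT (red) array, with the mean and SD of 3 arrays as black bars. Each panel spans the same range of log2 units. TAP2 is lower in HHT by 1.84, PSMB8 overlaps, and TAP1 and PSMB9 are higher by 0.71 and 1.01.

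PSME1, a subunit of the PA28 activator of the proteasome, measured 12.83, 12.38 and 12.74 in vehicle and 12.17, 12.02 and 12.06 in HHT and fell by 0.57 (SE 0.103, adjusted p = 0.000963). It was called at -0.33 and -0.28 under equal medians and equal hybridisation controls. Its partner PSME2, read on a probe set that is also annotated to the microRNA gene MIR7703, was not called at -0.09 (95% interval -0.21 to 0.04). TAPBP, or tapasin, which holds empty class I molecules at TAP, measured 9.93, 9.87 and 10.08 against 9.86, 9.47 and 9.41. It fell by 0.38 (SE 0.125, adjusted p = 0.0281). That call was lost under 8 of 17 alternatives, among them the scaling to equal medians (-0.14, adjusted p = 0.416), that to equal controls (-0.10, adjusted p = 0.619) and the fit without a variance trend (adjusted p = 0.0953). It was also lost without vehicle replicate 1 (adjusted p = 0.0550), without vehicle replicate 3 (0.0926) and without either of HHT replicates 2 and 3 (0.102 and 0.105). TAPBPL, a tapasin relative that edits peptides, was not called at -0.04 (95% interval -0.57 to 0.49).

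The trimming enzymes moved apart. ERAP2 measured 10.50, 10.85 and 10.87 in vehicle and 11.31, 11.47 and 11.21 in HHT and rose by 0.59 (SE 0.107, adjusted p = 0.00104). Its next 2 probe sets rose by 0.82 and 0.45. ERAP1 measured 11.15, 11.28 and 11.02 against 10.56, 10.56 and 10.48 and fell by 0.62 (SE 0.0803, adjusted p = 9.36e-05), as did a second set (-0.62). Another ERAP1 probe set rose by 1.03 (adjusted p = 0.000727) and the last one tested, at 0.00, was not called, so the mean of its probe sets, at -0.05, was not called either (adjusted p = 0.704). The ERAP1 fall is thus a statement on 2 of its 4 tested probe sets. NLRC5, the class I transactivator, measured 9.20, 9.001 and 9.67 in vehicle and 9.35, 9.43 and 9.43 in HHT. The groups overlapped and the difference of 0.11 was not called (95% interval -0.23 to 0.45). NLRC5 was called at 0.30 when vehicle replicate 3 was left out (adjusted p = 0.04995) and at 0.40 with equal hybridisation controls (adjusted p = 0.0415).

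Class II HLA chains were dimmer than the class I chains and not called. The 6 chain genes had 18 single-gene probe sets, of which 8 passed the filter; those of HLA-DQA1 did not. Of the 5 chain genes tested, limma called 0 and gave 2 an unadjusted p under 0.05, where 53.8% of all genes were called and 8074 of 13572 had such a p. HLA-DRA, the alpha chain of HLA-DR, measured 5.27, 5.79 and 6.11 in vehicle and 5.13, 6.17 and 5.55 in HHT. Its groups overlapped, and the difference of -0.11 had a 95% interval from -1.03 to 0.82. HLA-DRB1, its polymorphic partner, measured 6.90, 7.61 and 7.49 against 6.91, 6.70 and 6.54, a difference of -0.61 that was not called (adjusted p = 0.0581). HLA-DRB1 passed with the 60% filter (adjusted p = 0.0428) and when vehicle replicate 1 was left out (-0.83, adjusted p = 0.0128). Its difference was smaller, and missed the threshold, under equal medians (-0.37, adjusted p = 0.255) and equal controls (-0.33, adjusted p = 0.325). HLA-DQB1 measured 7.29, 7.25 and 6.54 against 6.16, 6.34 and 6.47. Its arrays did not overlap, and the difference of -0.71 missed the threshold (adjusted p = 0.0519). HLA-DQB1 passed when vehicle replicate 3 was left out (-0.95, adjusted p = 0.0125) and with the 60% filter (adjusted p = 0.0348). It also passed with a robust trend (adjusted p = 0.04997) and with a pseudocount of 64 (-0.44, adjusted p = 0.0462). Equal medians and equal controls brought the HLA-DQB1 difference to -0.47 and -0.42, short of a call (adjusted p = 0.192 and 0.246). Over all alternatives that difference ran from -0.95 to -0.19. The other tested probe sets of HLA-DQB1, at 0.41 and -0.26, did not reach a call either. HLA-DPA1 differed by -0.13 (95% interval -0.50 to 0.24) and HLA-DPB1 by -0.46 (95% interval -2.24 to 1.32), the latter with vehicle arrays at 6.45, 4.05 and 5.79.

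The probe sets shared between HLA genes bear on the DRB and DQ chains. Those of HLA-DRB1 with HLA-DRB4, of 4 DRB and DQB1 genes with HLA-DRB5, and of 4 such genes with HLA-DRB3 differed by -0.36, -0.33 and -0.37, each not called (adjusted p = 0.259, 0.167 and 0.332). The set that names 6 such genes differed by 0.15 (adjusted p = 0.847). The set of HLA-DQA1 with HLA-DQA2 and the remaining DRB set did not pass the filter. Of the 5 shared sets tested, PSME2 with MIR7703 included, limma called 0 and gave 0 an unadjusted p under 0.05.

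HLA-DM and HLA-DO control the loading of class II. HLA-DMA, with 6.85, 6.68 and 6.46 in vehicle and 6.91, 6.82 and 6.77 in HHT, differed by 0.17 (95% interval -0.32 to 0.66). HLA-DMB differed by 0.16 (95% interval -0.65 to 0.98) and HLA-DOA, a brake on HLA-DM, by 0.25 (95% interval -1.20 to 1.69). None of them was called. CD74, the invariant chain, measured 8.69, 8.75 and 8.63 in vehicle and 7.95, 7.98 and 7.61 in HHT. All HHT arrays were below all vehicle arrays, and CD74 fell by 0.84 (SE 0.141, adjusted p = 0.000557), a 1.80-fold lower signal. It was called under each of the 4 scalings, at -0.61 for equal medians and -0.56 for equal hybridisation controls. Its other 2 probe sets were dim; 1 of them, with a vehicle mean of 4.38, passed the filter only through its HHT arrays, at a mean of 5.33, and was not called. The mean of that set and the brightest, 0.05 (adjusted p = 0.926), rests on it. CTSS, or cathepsin S, which cuts the invariant chain, measured 9.78, 9.72 and 9.73 against 9.96, 9.81 and 9.68 and was not called at 0.07 (95% interval -0.14 to 0.28). A dimmer CTSS probe set rose by 0.34 (adjusted p = 0.0211). The brightest was called at 0.31 with equal medians and at 0.35 with equal hybridisation controls and was at -0.04, not called, after quantile normalization.

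The 3 subunits of the RFX complex, which binds the X box of class II promoters and also acts at class I promoters, did not move together. RFXANK measured 10.89, 10.86 and 10.88 in vehicle and 11.31, 11.31 and 11.38 in HHT and rose by 0.46 (SE 0.0628, adjusted p = 0.000138). RFX5, the DNA-binding subunit, measured 12.25, 12.30 and 12.26 against 11.65, 11.81 and 11.97 and fell by 0.46 (SE 0.0789, adjusted p = 0.000688). RFXAP measured 10.17, 10.37 and 10.20 against 9.78, 9.82 and 9.72 and fell by 0.47 (SE 0.0856, adjusted p = 0.000951). RFXANK was called under each of the 4 scalings. RFX5 and RFXAP were not called with equal medians (-0.22 and -0.24, adjusted p = 0.206 and 0.147), with equal hybridisation controls (-0.17 and -0.19, adjusted p = 0.0762 and 0.156) or from the mean of their probe sets (-0.17 and -0.41, adjusted p = 0.0976 and 0.0725). CIITA, the class II transactivator, was dim, with 6.15, 5.98 and 5.59 in vehicle and 5.63, 6.04 and 4.71 in HHT, and its difference of -0.45 was not called (95% interval -1.40 to 0.50). CD1D, which presents lipids to NKT cells, was below the filter level on every array, at 4.19, 4.49 and 1.82 in vehicle and 0.00, 1.58 and 1.22 in HHT, and was not tested.

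Set against each other, the median change was 0.14 over the 17 class I members and -0.29 over the 14 class II members, beside -4.15e-05 over all genes tested. Averaged over its members as the difference from each gene's vehicle mean, class I stood at 0.02, -0.06 and 0.04 on the vehicle arrays and at 0.10, 0.07 and 0.11 on the HHT arrays. Class II stood at 0.14, 0.05 and -0.19 on the vehicle arrays and at -0.34, -0.04 and -0.29 on the HHT arrays, where HHT replicate 2 lay above vehicle replicate 3. The medians differed by 0.43, a description with no test. That difference was 0.68 without vehicle replicate 3 and 0.19 without HHT replicate 1. It was 0.09 when a gene could be represented only by a probe set without the _x_at suffix, which left 13 class I genes, 5 higher (HLA-E, TAP1, PSMB9, PSMB10 and ERAP2) and 5 lower. The classes also differed in precision: the SE of a change had a median of 0.0852 over the class I members and 0.230 over the class II members, beside 0.124 over all genes tested.

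With equal medians 9 class I members rose and 3 fell, and 2 class II members rose and 1 fell, where 37.3% of all genes rose and 12.7% fell. With equal hybridisation controls the class I counts were 11 and 3 and the class II counts 2 and 1, where 41.6% rose and 12.8% fell. After quantile normalization they were 8 and 4, and 1 and 3, where 29.8% rose and 22.9% fell. Equal medians moved the median of all genes to 0.24 and equal hybridisation controls to 0.28. The class I members that were called in the same direction under all 4 scalings were HLA-B, HLA-E, HLA-F, HLA-G, TAP1, PSMB9, PSMB10 and ERAP2, which rose, and TAP2, PSME1 and ERAP1, which fell. Those of class II were RFXANK, which rose, and CD74, which fell.

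**Figure D4:**
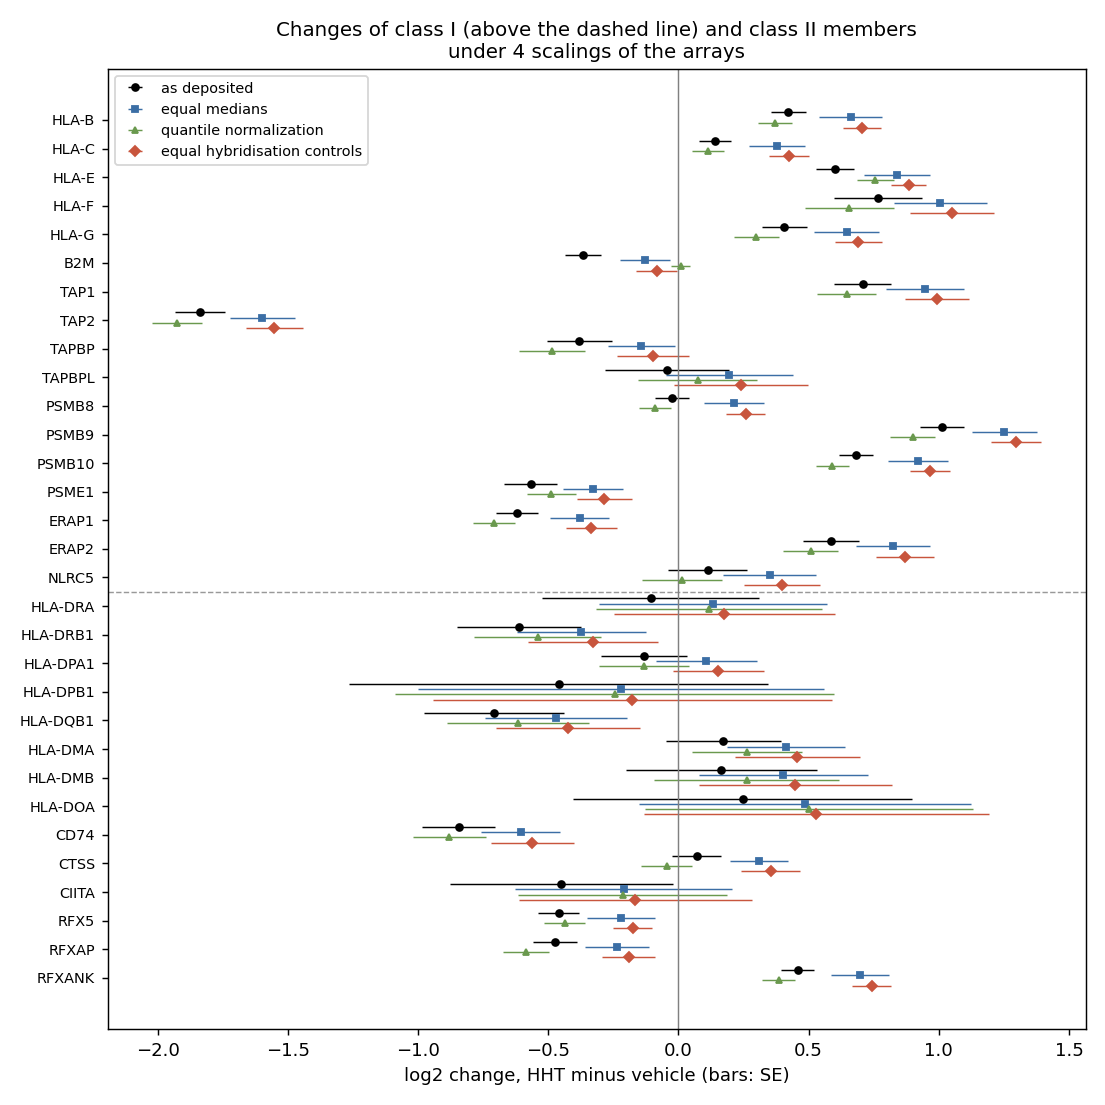
Log2 change (HHT minus vehicle) of each tested member with its SE, as deposited (black circles), with equal array medians (blue squares), after quantile normalization (green triangles) and with equal hybridisation controls (red diamonds). The dashed line parts class I from class II. TAP2 stays below -1.5 and PSMB9 at or above 0.90 under each scaling, while B2M lies between -0.37 and 0.01.

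Other genes of the pathway, from lists set out by role, give the surroundings of the members. Their counts stand beside the 29.6% of all genes that rose and the 24.2% that fell, or 37.3% and 12.7% with equal medians and 41.6% and 12.8% for equal controls. Of the promoter factors of HLA genes, 9 of 12 tested rose and 1 fell, with a median of 0.90. KAT2B and CREBBP, coactivators with acetyltransferase activity, rose by 1.85 (SE 0.185) and 1.81 (SE 0.102). IRF9, which binds interferon-stimulated response elements with STAT proteins, rose by 1.76 (SE 0.174) and IRF1 by 1.20 (SE 0.137). Of the NF-Y complex, which binds the CCAAT box, NFYA fell by 0.79 (SE 0.0619), the 1 member against its list, while NFYB and NFYC rose by 0.68 (SE 0.0809) and 0.77 (SE 0.0876). A dim NFYC probe set fell by 1.91. Of the interferon receptors and kinases, 3 of 7 rose and 1 fell, shares near those of all genes, with a median of 0.14. IFNGR1, the ligand-binding chain of the interferon gamma receptor, rose by 0.78 (SE 0.0646) and JAK2 by 0.83 (SE 0.156). IFNAR2 fell by 0.42 (SE 0.0889), a call lost once medians (-0.18, adjusted p = 0.304) or hybridisation controls (-0.14, adjusted p = 0.297) were set equal. TYK2, not called on the deposited scale, was called higher for equal medians (0.38, adjusted p = 0.0221) and for equal controls (0.42, adjusted p = 0.00205).

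The endoplasmic reticulum chaperones listed beside class I loading, not all of them particular to it, fell in 5 of 5 cases, where 24.2% of all genes fell, with a median of -0.56. HSPA5 fell by 1.08 (SE 0.0753) and PDIA3, which sits in the loading complex with tapasin, by 0.97 (SE 0.0666). CALR (-0.22 and -0.17) and UGGT1 (-0.21 and -0.17) were not called with equal medians or equal hybridisation controls (adjusted p = 0.173, 0.0993, 0.155 and 0.118 in that order). Of the standard proteasome subunits and activators, 2 of 5 fell and none rose, with a median of -0.10. PSMB5, which PSMB8 replaces, fell by 0.88 (SE 0.0764). PSMB6 and PSMB7, which PSMB9 and PSMB10 replace, differed by 0.14 (SE 0.109) and 0.02 (SE 0.0501) and were not called. PSMB6 was called higher when hybridisation controls were set equal (0.42), and PSMB7 under each of the other 3 scalings (0.26 for equal medians, 0.36 for quantile normalization and 0.30 for equal controls). PSME4 fell by 0.64 (SE 0.0698), but another of its probe sets rose by 0.28. Of the peptidases that trim or destroy cytosolic peptides, 3 of 5 fell and none rose on the deposited scale, with a median of -0.32. THOP1 fell by 0.92 (SE 0.142) and LAP3 by 0.57 (SE 0.0583). BLMH fell by 0.32 (SE 0.0683), a call lost for equal medians (-0.082, adjusted p = 0.585) and for equal hybridisation controls (-0.037, adjusted p = 0.760). TPP2 and NPEPPS, not called on the deposited scale, were called higher for equal controls (0.25 and 0.38, adjusted p = 0.0157 and 0.00107).

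Among class I-like molecules and NK ligands, 2 of 9 tested rose and 3 fell, with a median of -0.40. MR1, which shows vitamin B metabolites to MAIT cells, rose by 2.67 (SE 0.104) from 7.77 ± 0.103 to 10.44 ± 0.0853 (SD, n = 3 each), and 4 of its 5 other probe sets also rose. ULBP2, a ligand of the NK receptor NKG2D, rose by 0.84 (SE 0.120). PROCR fell by 1.15 (SE 0.112) and FCGRT, the neonatal Fc receptor, by 0.83 (SE 0.208). MICB, another NKG2D ligand, fell by 0.40 (SE 0.110), a call lost for equal medians (-0.16, adjusted p = 0.451) and for equal controls (-0.11, adjusted p = 0.452). Of the endosomal proteases and the ubiquitin ligases that remove class II, 1 of 6 tested rose and 2 fell, with a median of -0.16. CTSB rose by 0.91 (SE 0.0601), and CTSD fell by 0.65 (SE 0.212), a call gone under equal medians and under equal controls (-0.41 and -0.37, adjusted p = 0.164 and 0.179). MARCHF8, a ligase of class II, fell by 0.27 (SE 0.0982), and its call was gone under both as well (-0.028 and 0.017, adjusted p = 0.884 and 0.924), so that none of the 6 was called lower there. Of the T cell costimulators, CD40 rose by 0.87 (SE 0.129) and CD86 by 1.02 (SE 0.371, adjusted p = 0.0433), and CD80 was not called at 0.01. Of the other class II genes listed, 3 (HLA-DOB, HLA-DRB4 and HLA-DQB2) had a single-gene probe set, and none of these sets passed the filter.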

How the data were processed

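Per the submitters' processing notes, MAS5 (no version named) made the signals. The authors deposited them on a log2 scale, with 54675 probe sets per array. Antilog signals, trimmed by 2% at each end, averaged 500.1 on each array. No detection calls or scanner files were used here. Control probe sets (62) were left out, then the 40% of the others with the lowest mean over 6 arrays, at a level of 4.80, which left 32768. The platform annotation names the genes, with symbols updated through Entrez IDs and RefSeq. Of the probe sets other than controls, 41091 had 1 gene, 1801 several (kept apart) and 11721 none. The main test was limma 3.58.1 (R 4.3.3; lmFit, eBayes with a variance trend), adjusted over all probe sets tested; the fit was tested on simulated data. The number of arrays limits the precision. Intervals are 95% and unadjusted. Every member with a value is named, and of each other list up to 2 called genes with the largest change and any called against its list's direction; further genes were chosen after their values were seen. The members, lists and motifs were chosen with earlier results of these data known. Alternatives were other scalings, filters, variance models, thresholds and probe set choices, a pseudocount of 64, the replicate number as a block, and leaving out each array.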

Additional observations from a re-analysis of the deposited data

How the results depend on the processing

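Of the 17 called members, 11 (9 higher, 2 lower) were called in the same direction under every alternative that gave them a value, which for each gene are 16 or 17 of the scalings, filters, variance models, probe set choices, the block and the fits without 1 array. Those that lost a call or turned were B2M, TAPBP, ERAP1, CD74, RFX5 and RFXAP. Class I members called lower were 3 with equal medians, 3 with equal hybridisation controls, 2 from the mean of probe sets and 1 with an absolute change of at least 1, which also left 1 class I member higher, 0 class II members in either direction, and 1297 genes higher and 806 lower overall. Class I members called higher were 5 without _x_at probe sets, and the class difference was then 0.094. With equal medians, and likewise with equal controls, 2 class II members were called higher and 1 lower. Class II members called lower were 5 with the 60% filter and 0 from the mean of probe sets. The 60% filter also changes which genes are tested. For that filter, the mean of probe sets and the choice without _x_at sets, no share of all genes is given here. These counts are thus not read as results about the members. All genes called lower were 1718 (equal medians) and 1741 (equal controls). Leaving out 1 array gave 8 to 9 class I members higher, 4 to 5 lower, 1 class II member higher, 3 to 4 lower, and class differences of 0.19 to 0.68. Of all genes, 3573 to 3945 were then called higher and 2892 to 3210 lower.

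Signs turned with equal medians for TAPBPL (0.20), PSMB8 (0.21), HLA-DRA (0.13) and HLA-DPA1 (0.11); when the controls were set equal for TAPBPL (0.24), PSMB8 (0.26), HLA-DRA (0.18) and HLA-DPA1 (0.15); after quantile normalization for B2M (0.0093), TAPBPL (0.074), HLA-DRA (0.12) and CTSS (-0.044); and from the mean of probe sets for TAPBPL (0.27) and CD74 (0.052). The cause was not tested. Leaving out 1 array gave -0.14 to 0.047 for TAPBPL, -0.033 to 0.30 for NLRC5, -0.38 to 0.13 for HLA-DRA, -1.15 to 0.37 for HLA-DPB1, -0.25 to 0.46 for HLA-DMB and -0.47 to 0.62 for HLA-DOA.

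Same-numbered arrays were not treated as pairs in the main fit. Across probe sets, their deviations from the group means correlated at 0.0655, -0.0141 and 0.0491. Between arrays of different number the correlations ran from -0.0887 to 0.0424. Whether the arrays were paired cannot be told from values this small. With the replicate number as a block, 8 class I members rose and 5 fell, 1 and 3 of class II, and 4061 and 3333 of all genes. Class II chains were dimmer than the class I chains and had SEs of 0.166 to 0.803, against 0.0628 to 0.170 for class I.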
